A study of Mus musculus with 16 samples.

Results

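Ago2-bound RNA was mapped in activated mouse splenic B cells, and 12098 of the 962700 Ago2 regions lay in pseudogenes. Members were the regions that overlapped, on the same strand, the span of a gene whose deposited biotype is a kind of pseudogene, and no same-strand span of any other biotype. They made up 1.26% of all regions and fell in 2159 of the 7880 pseudogenes in the deposited gene table, or 27.4%. Of the 13918 regions that touched a pseudogene, 1820 also touched a gene of another biotype and were left out. A region was 50 nt wide at the median, and 10613 members lay wholly inside a pseudogene.

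The B cells came from the spleens of mice labelled strain C57B6L/J and were grown for 4 days with aCD40 (500 ng/ml), IL4 (25 ng/ml) and IL21 (10 ng/ml) in every group. The groups are named KO and Flox, in a study of miR-221/222-3p targets, with 4 RNA-seq and 4 Ago2 HITS-CLIP libraries of each; which Cre removed the locus, if one did, and whether libraries came from separate mice were not given in the sources used here. The CLIP table compares 2 conditions without naming their genotype, so the sign of a CLIP difference is not tied here to KO or Flox. RNA-seq depth was 22947689 to 39616596 reads per library. B cell markers summed to 350222 to 446393 normalized counts per library, mostly from Cd74, and T cell markers to 5.2 to 30.8. Myeloid markers, mostly Cd68, summed to 323 to 534 and erythroid markers to 0 to 5.8. NK markers, mostly Prf1, summed to 158 to 206 in KO and 93.9 to 138 in Flox, without overlap. Stroma markers, mostly Pecam1, summed to 718 to 849 in KO and 503 to 658 in Flox, also without overlap. The rows of Mir221 and Mir222 held 0 in every KO library and at most 3.5 in a Flox library, too little to check the labels.

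Pseudogenes are copies of genes that have lost the ability to make the original protein. Processed pseudogenes arose when a spliced messenger RNA was copied back into DNA and inserted elsewhere, so they carry no introns and often lie far from the parent gene. Unprocessed pseudogenes arose by duplication of genomic DNA and can keep introns and neighbours. Ago2 is the protein that holds a miRNA and is guided by it to matching RNA, mostly through the seed at the miRNA's 5′ end. HITS-CLIP reads the short RNA fragments, called tags, that stay crosslinked to Ago2, and a tag from a pseudogene can have the same letters as one from its parent.

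The miRNAs under study are shown with their seed, bases 2 to 8, in capitals, because both carry the same one and so would match the same letters in a pseudogene. Sequences are from RefSeq for GRCm38.p6.
mmu-miR-221-3p, chrX:19146307-19146329, minus strand: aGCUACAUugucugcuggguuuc
mmu-miR-222-3p, chrX:19146901-19146923, minus strand: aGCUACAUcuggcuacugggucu

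Letters could be read for 11 members, those inside a RefSeq promoter window. The 2 shown are the one with the highest score for a difference between the conditions (4.6, in A930035D04Rik) and the one that covers the start of a pseudogene (2.4, in Tma7-ps); the capitals mark the first 3 letters of the Tma7-ps span, which begin with ATG.
A930035D04Rik, chr6:47454175-47454204, minus strand: gtgggggagggagggccggaacgcaccgcc
Tma7-ps, chr1:171711088-171711109, plus strand: ATGtcgggccgggaaggtggca
The Tma7-ps letters are the part of a 50-nt member inside the span. The member was placed without gaps on the promoter window of the parent Tma7 where the most letters were identical, 28 of 39. How many letters an unrelated window would give was not tested. None of the 11 members held ATGTAGC, the match to the shared seed, or its shorter form TGTAGC on the transcribed strand. Over the 50 letters at the same place in all 32851 promoter windows, 0.18% held the longer form and 0.95% the shorter. No match here says only that these letters are not in these 11 regions.

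The CLIP table divides each covered stretch of RNA into bins of 5 nt and gives each bin a difference between 2 conditions and a state, negative, none or positive. A region is a run of neighbouring bins in 1 state, and the deposited score is above 0 only in regions with a difference. The scales of the difference and of the score were not given in the sources used here. Of the 12098 members, 4532 (37.5%) were in the negative state, beside 33.1% of all regions, and 890 (7.36%) in the positive state, beside 9.28%. The other 6676 showed no difference. The median of the mean difference over a region's bins was -0.05 in members and -0.04 in all regions, and it was above 0 in 28.9% of members and 33.6% of all regions. Which genotype the sign stands for is not known, so the split describes the table and not the genotypes.

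Members differed from the 805450 regions in protein-coding genes only, of which 31.4% were negative and 9.73% positive. The 13044 regions in long noncoding RNA genes only had 33.3% and 9.89%. A score of at least 5 was held by 2282 members (18.9%), beside 12.1% of all regions. Protein-coding regions had 10.6% and long noncoding RNA regions 13.2%. Of those 2282 members 66.8% were negative, a share not comparable with that of all members, since regions without a difference have no score above 0. Among all members with a difference, 4532 were negative and 890 positive. A score of at least 20 was held by 2.84% of members and 1.12% of all regions. The shares varied with width. Among regions of 20 to under 40 nt, 44.0% of 3426 members (exact binomial 95% interval 42.3 to 45.7%, counting error only) and 47.3% of 210525 protein-coding regions were negative. Among regions of 100 to under 200 nt, the shares were 25.3% of 1607 (23.2 to 27.5%) and 10.7% of 164140. Positive shares in that width class were 0.68% and 2.33%. Protein-coding spans include introns, which processed pseudogenes do not have, so these classes differ in more than their biotype. The CLIP table gives 1 difference for each bin and no value for each library, so no value carries an error between libraries, and regions next to each other are not independent.

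**Figure D1:**
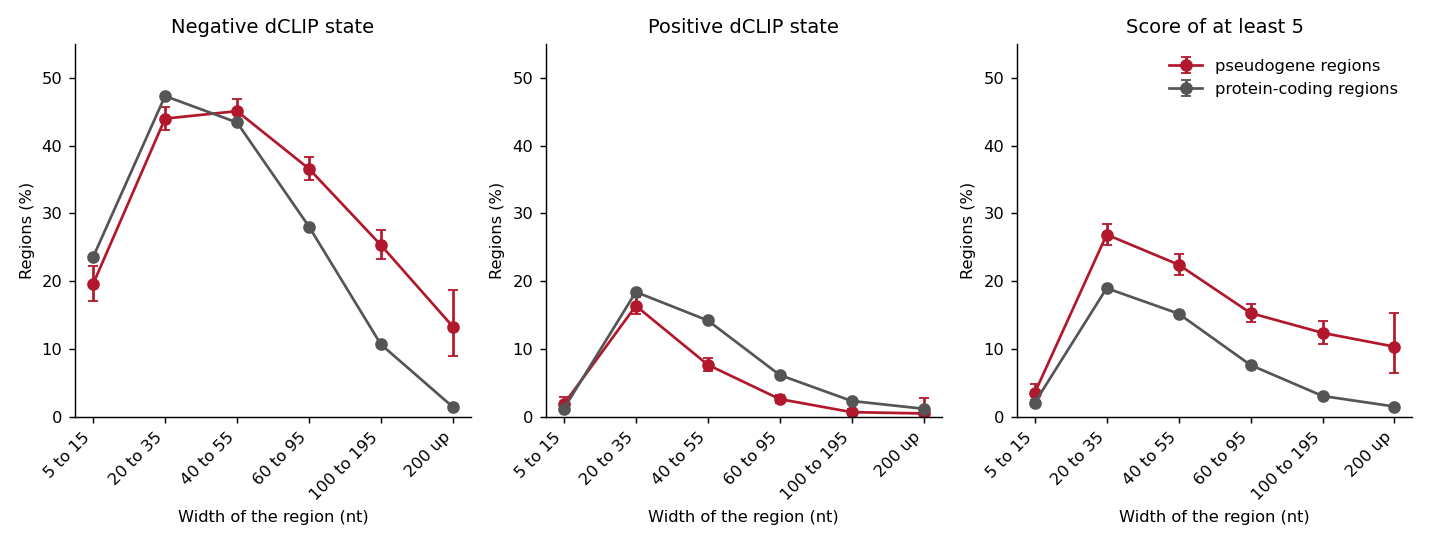
Share of regions (%) in the negative dCLIP state, in the positive state and with a score of at least 5, by the width of the region in nt, for regions in pseudogenes and in protein-coding genes; bars are exact 95% binomial intervals. Pseudogene regions of 60 nt and more lie above protein-coding regions for the negative state (36.6% against 28.1% at 60 to under 100 nt) and below them for the positive state (2.61% against 6.16%).

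Most host pseudogenes were processed copies. Of the 2159 hosts, 1870 were processed pseudogenes, which is 35.2% of the 5307 such genes listed, and 143 were unprocessed pseudogenes, 7.2% of 1979. Transcribed processed (64), transcribed unprocessed (47) and immunoglobulin V pseudogenes (16) came next. A host held 3 regions at the median and 230 at most, and 477 hosts held 1. Members covered 34.3% of the span of a processed pseudogene at the median (median span 579 nt) and 2.1% of that of an unprocessed one (8450 nt). At least 90% of the span was covered in 240 processed pseudogenes. States were distributed similarly in both kinds, with 37.8% of 9423 members negative and 7.26% positive in processed pseudogenes, and 38.4% of 1135 and 6.70% in unprocessed ones. Transcribed processed pseudogenes had 32.4% negative and 11.1% positive of 450. In immunoglobulin V pseudogenes 17 of 36 members were negative and none was positive.

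Within processed pseudogenes, the 8047 members wholly inside a span were spread along it. With each span divided into 5 equal parts from the 5′ to the 3′ end, the parts held 1286, 1673, 1805, 1792 and 1491 of them. The negative share varied little between the parts, at 40.7%, 39.0%, 37.3%, 38.9% and 37.4%. The highest score was also placed in 1033 processed pseudogenes with at least 3 such members and a score above 0. It lay in these parts in 169, 194, 229, 260 and 181 cases. Regions that cross an end of the span were left out, a choice that can lower the counts of the first and last parts.

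Ago2 regions were found on many pseudogenes that RNA-seq hardly detected. RNA-seq normalized counts, the authors' read counts divided by a library size factor, had a median of 0.7 over the hosts. No read in any of the 8 libraries was counted for 498 hosts (23.1%), and 1213 (56.2%) had a mean under 1. Among protein-coding genes with an Ago2 region, 2003 of 13081 (15.3%) had a mean under 1. Of the 100 hosts with the highest scores, 31 had a mean under 1 and 16 had no read at all. Spearman's rho between a gene's highest score and its mean RNA was 0.25 across the 2159 hosts and 0.51 across the 13081 protein-coding genes, as a description only, since genes of 1 family can share reads and tags.

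The highest score among members, 261.7, lay in Gm11408, a processed pseudogene whose parent the table does not name (chr4, 80003396 to 80003914, minus strand). The region ran from 80003895 to 80003949 across the 5′ end of the span, with 20 of its 55 nt inside, was negative and had a mean difference of -0.20. The highest score wholly inside Gm11408 was 3.7. Of the 12 regions with the highest scores, 5 lay wholly inside a pseudogene. RNA-seq counted 1 read for Gm11408 in each of 2 libraries, at normalized counts of 1.2 in KO 3 and 0.9 in Flox 2, and none in the other 6. Gm7429, also a processed pseudogene without a named parent (chrX, 114980970 to 114981317, minus strand), had a score of 137.6 and a mean difference of -0.24 in a region of 55 nt. In all, 17 hosts had a region with a score of at least 100, and 340 had no score above 0. Some of the 17, Gm11408 among them, reached 100 only in a region that crosses an end of the span.

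Ribosomal protein genes, whose short and abundant messenger RNAs have left many copies, were the largest family with a named parent. A member was held by 199 of the 257 such pseudogenes listed (77.4%), against 27.4% of all pseudogenes. Members covered 68.1% of the span at the median (quartiles 31.8% and 96.6%), against 29.7% over all hosts. They numbered 1181, of which 455 (38.5%) were negative and 99 (8.38%) positive, and 377 (31.9%) had a score of at least 5, beside 18.9% of all members. Of the 17 hosts with a score of at least 100, 5 were ribosomal protein copies. RNA-seq means were under 1 for 81 of the 199 (40.7%) and at least 10 for 32.

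Copies of Rps13, a small-subunit protein gene, spanned a wide range. Rps13-ps1 (chr8, 87047689 to 87048226, plus strand) had the highest score of the family, 177.3, at its 3′ end in the region 87048175 to 87048234, with 52 of its 60 nt inside and a mean difference of -0.34. The highest score wholly inside Rps13-ps1 was 36.8. Members covered 98.1% of its span, and it had no read in any RNA-seq library. Its parent Rps13 reached a score of 81.5 and a mean of 45.6 normalized counts. Rps13-ps5 reached 128.8 with 86.8% covered and Rps13-ps2 35.4 with the whole span covered. Rps13-ps6 reached 2.9 with 20.6% covered, and Rps13-ps7, with 12.8% covered, had no score above 0.

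All 9 Rpl30 pseudogenes in the table held members. The parent Rpl30, a large-subunit protein gene, reached a score of 68.6 with a mean of 4778 normalized counts. Rpl30-ps10 (129.8), Rpl30-ps11 (106.3), Rpl30-ps9 (101.0), Rpl30-ps8 (99.7) and Rpl30-ps1 (87.0) had higher scores than Rpl30, with 95.1% or more of each span covered. Rpl30-ps3 reached 36.8, Rpl30-ps2 28.3, Rpl30-ps6 12.9 and Rpl30-ps5 4.4, with 21.1% to 81.6% covered. The 5 copies with high scores were thus also the 5 most fully covered. RNA-seq means of the 9 copies were 0 to 9.88. Rps12, a small-subunit protein gene, showed another pattern: 18 of its 21 pseudogenes held members with highest scores of 1.6 (Rps12-ps17) to 22.7 (Rps12-ps1), all below 156.8 in the parent. Rpl37rt, a copy of Rpl37 (chr5, 115102923 to 115110268), reached 97.1 beside 219.9 in Rpl37, and Rpl14-ps1 57.3 beside 57.0 in Rpl14. Rps3a2, which had no parent matched, reached 39.9 and had members over its whole span.

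The parent was found for 326 hosts of 161 parents, by the part of the symbol before -ps, -rs or rt. The pseudogenes held 5 regions at the median and their parents 27. The highest score was 7.25 at the median in the pseudogenes and 26.0 in the parents, and in 46 pairs that of the pseudogene was at least as high. Of the 2083 members in these hosts 37.3% were negative and 7.7% positive, beside 30.4% and 11.8% of the 9461 regions in the parents. The 194 ribosomal protein copies with a parent had 38.6% and 8.3% of 1138 members, beside 31.7% and 10.4% of 1251 regions in 55 parents. These shares were not tested, since a parent's span includes its introns and any gene inside it, and copies of 1 parent are not independent.

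RNA-seq separated pseudogenes from parents widely. The median of the mean normalized counts was 1.21 in the pseudogenes and 1239 in their parents, and the pseudogene was lower in 323 of 326 pairs. Among the 46 pairs in which the pseudogene's score was at least the parent's, 18 pseudogenes had a mean under 1 normalized count. No parent is named for 1797 hosts, so these counts cover a small share of the 2159.

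**Figure D2:**
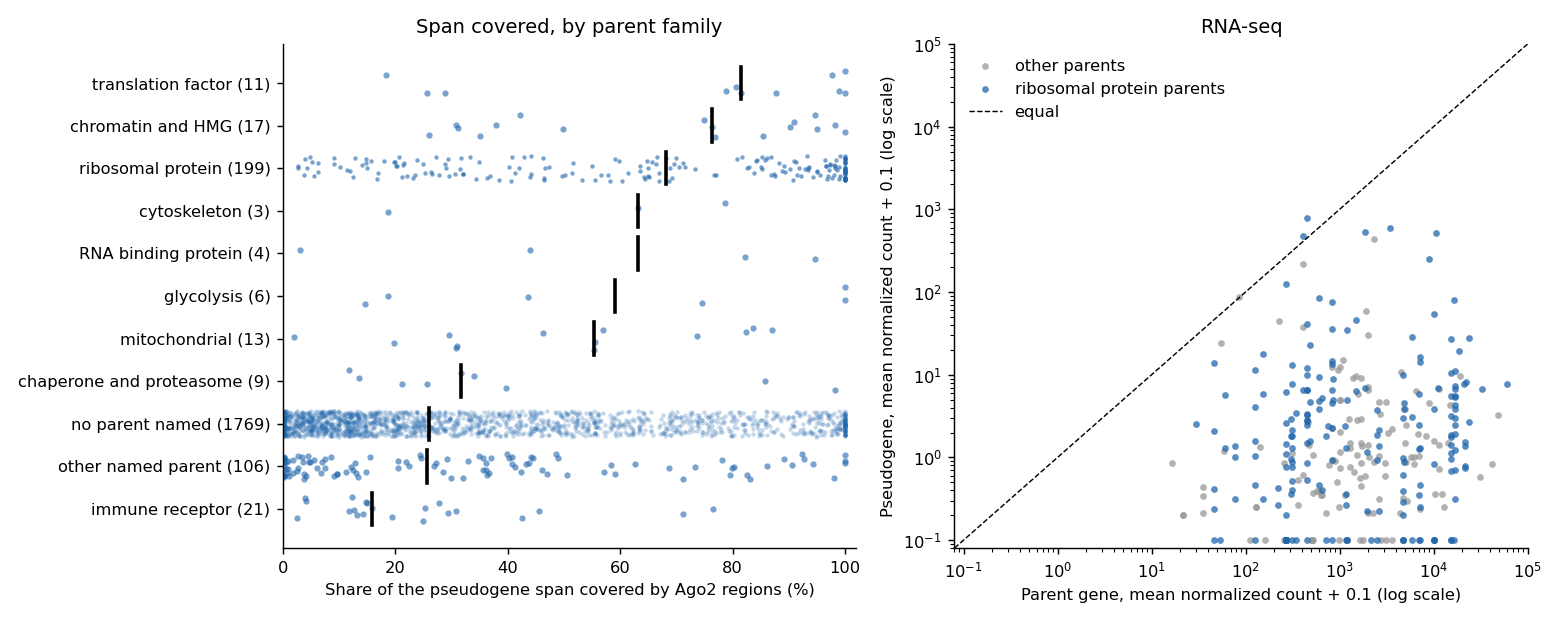
Left, share of each pseudogene's span covered by Ago2 regions (%), 1 dot per host, by family of the parent with the number of hosts in parentheses; the black tick is the median. Right, mean normalized RNA-seq count plus 0.1 over 8 libraries of 326 pseudogenes against their parents, on log scales. Translation factor (81.5%), chromatin (76.4%) and ribosomal protein copies (68.1%) have the highest medians on the left, where families of at least 3 hosts are shown, and RNA lies below the line of equal values in 323 pairs on the right.

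The list of translation factors, which also holds Tpt1, a small abundant growth-related protein gene, had members in 11 of 11 pseudogenes, 5 of them copies of Tpt1. Of their 77 members 30 (38.96%) had a score of at least 5, and 27 were negative and 11 positive. Tpt1-ps3 reached a score of 33.7 and Tpt1-ps5 28.7, beside 26.7 in the parent Tpt1, whereas Tpt1-ps6 reached 21.6, Tpt1-ps2 2.6 and Tpt1-ps1 had no score above 0. Eif3s6-ps1, a copy of Eif3e, reached 49.1 beside 16.9 in Eif3e, a subunit gene of an initiation factor, but Eif3s6-ps2 3.6. Eif1-ps1 reached 5.6 and Eif1-ps3 5.1 beside 25.4 in Eif1. Eif4a-ps4 had 22 members over its whole span with a highest score of 16.6. The chromatin list had 17 of 34 pseudogenes with members. Hist1h2aj (score 26.6, 90.3% covered) and Hist1h2al (20.9, the whole span covered), histone H2A genes that the table calls pseudogenes, had no RNA-seq read in any library. H3f3a-ps2, a copy of a histone H3.3 gene, reached 16.5 beside 30.6 in H3f3a, and Anp32b-ps1 11.9 beside 48.4 in Anp32b. Tdg-ps, whose parent encodes a DNA repair glycosylase, had 24 members and a highest score of 6.2 beside 12.2 in Tdg.

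Glycolysis pseudogenes held members in 6 of 9 cases. Pgk1-rs7, a copy of phosphoglycerate kinase, reached a score of 56.6 over 22 regions beside 44.3 in Pgk1, while Pgam1-ps1 (10.7), Pgam1-ps2 (8.1) and Gapdh-ps15 (3.5) were below Pgam1 (26.3) and Gapdh (8.9). The list of nuclear-encoded mitochondrial proteins had 13 of 15 pseudogenes with members. Mrps36-ps2 (9.2) and Mrps36-ps1 (7.1) stood above Mrps36 (4.0), a mitochondrial ribosomal protein gene, and Mrpl23-ps1 (4.4) above Mrpl23 (2.6). Slc25a5-ps (7.6) stood below Slc25a5 (15.0), the gene of an ADP/ATP carrier.

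Chaperone and proteasome pseudogenes held members in 9 of 22 cases, and the 4 with the most summed score stood below their parents. Cct3-ps1, a copy of a chaperonin subunit gene, reached 13.1 beside 18.6 in Cct3, Hspe1-ps2 12.8 beside 24.0 in Hspe1, Smt3h2-ps, a copy of Sumo2, 10.6 beside 31.8, and Hspd1-ps3 8.6 beside 16.9 in Hspd1. Cytoskeleton pseudogenes did in 3 of 3 cases, with Actg-ps1 at 13.0 against 50.9 in Actg1, and Tubb4b-ps1 and Tubb4b-ps2 at 10.6 and 6.8 against 12.8 in Tubb4b. RNA-binding protein pseudogenes did in 4 of 8, among them Hnrnpa1l2-ps (15.7), Hnrnpa1l2-ps2 (8.6), Rbm3-ps (4.6 beside 16.2 in Rbm3) and Rbm6-ps1 (2.9 beside 16.9 in Rbm6). The cell cycle list held 1 host among 2 pseudogenes, Ccnb1-ps, a copy of a cyclin gene, with 17 members, 9 of them negative and none positive, and a highest score of 25.2 beside 28.8 in Ccnb1.

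A stretch of 7 unprocessed pseudogenes on chromosome 1 carried 4 of the 12 named regions with the highest scores. With their highest scores in parentheses, Gm29216 (218.6), Gm28661 (173.5), Gm10925 (170.4), Gm28437 (102.6), Gm28438 (51.4), Gm10222 (89.4) and Gm28439 (169.0) lie side by side on the minus strand between 24611535 and 24616197. The Gm10925 score belongs to a region of 85 nt with 2 nt inside the span, and the highest score wholly inside Gm10925 was 101.5. For Gm28661, 186 of 275 nt lay inside, and the highest score wholly inside was 95.2. Read 5′ to 3′, the difference values of the stretch in 931 bins had a Pearson r of 0.60 with the plus strand of mitochondrial DNA from position 6390 to 11044. Over the 2330 positions tried, the highest r away from the best position and its near neighbours, which were left out, was 0.21. Bins next to each other are not independent, so this is a description. The 7 pseudogenes aligned in turn with mt-Co1 (part), mt-Co2, mt-Atp6, mt-Co3, mt-Nd3, mt-Nd4l and mt-Nd4 (part), mitochondrial genes for subunits of the respiratory chain and ATP synthase. Within single pseudogenes r was 0.42 for Gm28437 to 0.83 for Gm29216. Of the 931 bins, 636 (68.3%) were in the same state on both sides, and the median difference was -0.09 in the stretch and -0.10 in mitochondrial DNA.

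The profiles also departed from each other. Paired bins lay within 0.05 of each other in 332 of 931 cases (35.7%). The median gap between paired values was 0.0755, beside a median absolute value of 0.1146 in the stretch. The stretch had 9 bins with a difference above 0.4, and mitochondrial DNA had none. The highest, 0.98, lay 3425 nt from the 5′ end of the stretch, between Gm28438 and Gm10222 and so outside the members, where the mitochondrial value was -0.18. Others lay in the positive region of Gm28438 (24613090 to 24613114, score 24.9, mean difference 0.53). Leaving out the 9 bins gave an r of 0.65. RNA-seq counted next to nothing on either side of most of these pairs. Gm28661, Gm10925, Gm10222 and Gm28439 had 0 in all 8 libraries, Gm28437, Gm28438 and Gm29216 at most 2.1 in a library, and mt-Co2, mt-Atp6, mt-Co3, mt-Nd3 and mt-Nd4l were also listed at 0 throughout. The mitochondrial genes that reach beyond the stretch had reads, with means of 273901 normalized counts for mt-Co1 and 38507 for mt-Nd4. How far CLIP tags of these 7 pseudogenes and of mitochondrial DNA share reads was not tested. Without the 7 pseudogenes, 12062 members in 2152 hosts remained.

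**Figure D3:**
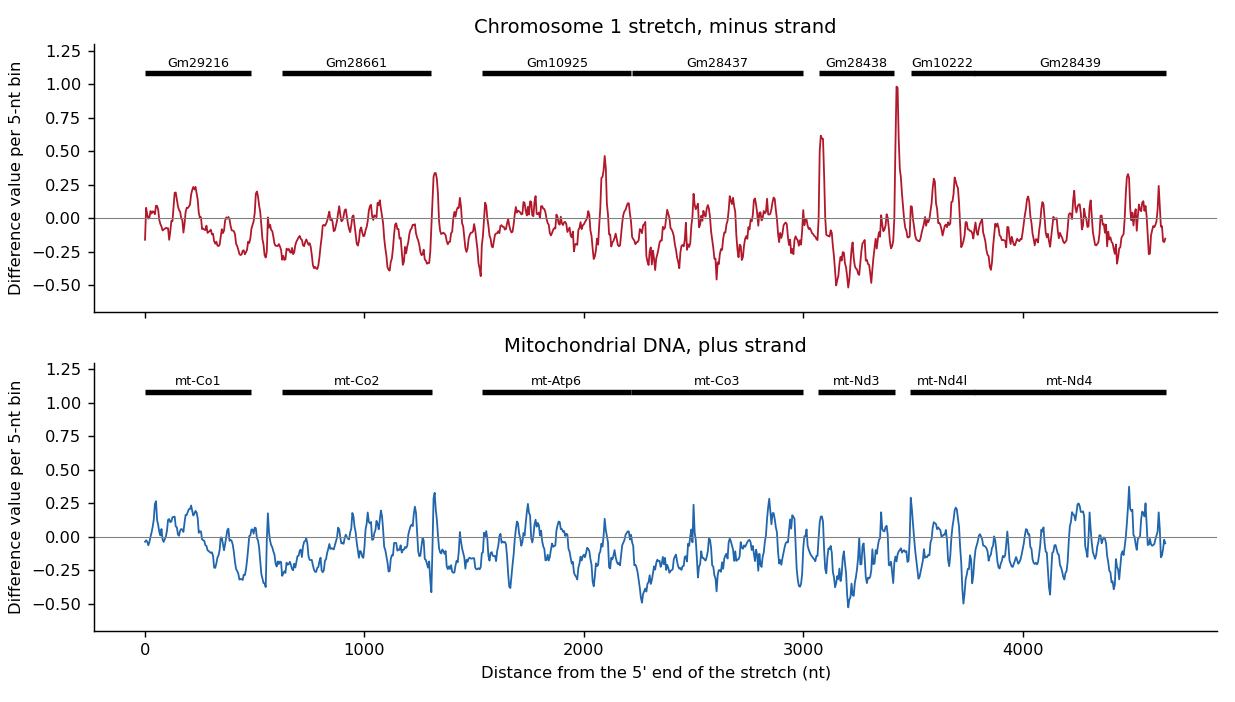
Difference value of the dCLIP output per 5-nt bin (scale not given) against distance in nt from the 5′ end of the stretch, for the 7 pseudogenes on chromosome 1 (top) and the best matching stretch of mitochondrial DNA (bottom); black bars are annotated genes. Both lines have their lowest values at the same distance, -0.52 and -0.53 at 3205 nt, while the peak of 0.98 at 3425 nt appears in the upper line alone.

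Gm13339, Gm13340 and Gm13341, neighbouring unprocessed pseudogenes on chromosome 2 (22587291 to 22590533, minus strand), held 4 more of the 12. Gm13340 reached 229.8 (mean difference -0.24) over 21 regions, and Gm13341 202.5 and 131.8 (both -0.22) over 12. The region with 131.8 had 23 of its 60 nt inside Gm13341. The region 22589985 to 22590024, with a score of 194.1 and a mean difference of 0.38, was the only positive one among the 12; 1 nt of it lay in the 3′ end of Gm13339 and 39 nt lay outside, and the highest score wholly inside Gm13339 was 66.8. Unlike most of the chromosome 1 stretch, Gm13340 and Gm13341 had RNA-seq reads in every library. Gm13341 stood at 12.7 to 67.6 normalized counts in KO and 38.2 to 54.1 in Flox, and Gm13340 at 27.4 to 65.9 and 39.3 to 63.7, so the groups overlapped for both. The 10 pseudogenes with the most summed score held 9.15% of the score of all members and 5.28% of the members.

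Long duplicated pseudogenes held the most regions. On chromosome 8, 2610005L07Rik (230 regions), 6820431F20Rik (204), Gm21092 (124), Gm21811 (119) and Gm6483 (106) lie between 19682449 and 20582771 and together held 783 members. Negative regions outnumbered positive ones in each, with 83 and 21 in 2610005L07Rik, 76 and 11 in 6820431F20Rik, 45 and 9 in Gm21092, 38 and 14 in Gm21811, and 36 and 9 in Gm6483. Highest scores were 21.2 (2610005L07Rik) to 48.4 (Gm21092). RNA-seq means were within a modest range, from 39.6 for 6820431F20Rik to 205 for Gm21092. On chromosome 7, 6 hosts near Gvin1, a gene of the large interferon-inducible GTPases, held 316 members with highest scores of 4.6 (Gm4759) to 13.3 (Gm8995). Their RNA-seq means ran from 1.91 for Gm8989 to 1480 for Gm8995, against 34.4 for Gvin1. Gm8989 and Gm8995 held 66 and 65 members, so region counts did not follow these RNA levels. Elsewhere, Gm11427 on chromosome 11 (132 regions, highest score 9.8), Mdm4-ps on chromosome X (74 regions, 56.1) and 5830417I10Rik on chromosome 3 (68 regions, 8.2) were also among the 8 hosts with the most regions. Mdm4-ps is a copy of Mdm4, which encodes an inhibitor of p53; Mdm4 reached 79.6, and RNA-seq means were 6.71 for the copy and 11459 for Mdm4.

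Immune receptor pseudogenes are antibody gene segments and MHC genes that the table lists as pseudogenes. A member was held by 21 of the 122 listed (17.2%, beside 27.4%), 85 members in all, 29 of them negative and 5 positive. All 5 positive ones lay in H2-Q5. Immunoglobulin V segments were 16 of these hosts. Ighv8-14 reached a score of 14.1 and Ighv1-62 8.4, with at most 1.5 normalized counts in any RNA-seq library, while Igkv4-83 had 1 member with no difference and a mean of 11.01. Of the 5 MHC class I hosts, 3 were abundant in RNA-seq and 2, H2-Bl and H2-Q3, were under the minimum of 10 normalized counts. H2-Q5 held 36 members with a highest score of 16.4 and a mean of 874 normalized counts, H2-K2 8 members with 8.9 and 528, and H2-T-ps 1 member with no difference and 830. Of the 21 hosts 5 were abundant enough to test between KO and Flox, and none passed limma's adjusted test; their median log2 fold change was -0.21, beside -0.01 over all genes, and 3 of the 5 were lower at an unadjusted p under 0.05, beside 7.39% of all genes.

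The largest mean differences were found in members with modest scores. Among members with a score of at least 5, the most negative were in Gm13493 (-0.66, score 13.3), Gm13925 (-0.57, score 6.1), Gm3756 (-0.54, score 10.8) and Gm10243 (-0.53, score 10.2). The most positive were in Gm15975 (0.54, score 18.8), Gm28438 of the chromosome 1 stretch (0.53, score 24.9), Gm21811 of the chromosome 8 cluster (0.52, score 11.4) and Gm13333 (0.47, score 9.3). By contrast the 12 regions with the highest scores had mean differences of -0.42 (Rpl30-ps10) to 0.38 (Gm13339). Positive and negative regions stood in the same pseudogene: Gm15975 held 7 negative and 3 positive regions. None of these 8 pseudogenes passed the RNA-seq test, and Gm13493, Gm13925, Gm3756, Gm10243, Gm28438 and Gm13333 were under the RNA-seq minimum of 10 normalized counts and were not tested.

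RNA-seq compared KO with Flox. One pseudogene with a member rose, Gm9855, a processed pseudogene on chromosome 10 (42054113 to 42055306, minus strand). Its normalized counts were 123.7, 166.9, 225.5 and 109.1 in the KO libraries and 0 in all 4 Flox libraries. The groups did not overlap, and the KO mean of 156 ± 52.3 (SD, n = 4) was at least 54.6-fold higher than a floor of 3 reads per library. It passed limma's test with an adjusted p of 2.43e-06 (log2 fold change on the value plus 1 of 7.24, SE 0.37). Of 274 hosts with a mean of at least 10 this was the only one called, beside 0.0687% of the 13091 genes tested. In CLIP it held 11 members, 5 negative, 1 positive and 5 with no difference. The positive one (42054375 to 42054409, mean difference 0.21) and a negative one (42054930 to 42054994, -0.18) had its highest score, 4.7.

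Tdg, the gene for thymine DNA glycosylase, was lower in KO in the same libraries. Its normalized counts were 201.9, 297.3, 191.9 and 243.3 in KO and 365.1, 391.8, 426.1 and 396.7 in Flox, without overlap, although it did not pass the threshold (limma adjusted p 0.212). Added together, Tdg and Gm9855 gave 390 ± 62.8 in KO and 395 ± 25.0 in Flox (SD, n = 4), ranges that overlapped. The table does not name Tdg as the parent of Gm9855, and this sum was chosen after the values were known. Tdg-ps, the copy that does carry the name, had at most 3.1 normalized counts in any library. Mid1, a ubiquitin ligase gene that is also the parent of a host, was higher in KO (18.0 to 40.5 against 3.5 to 4.1 normalized counts, limma adjusted p 0.0376), while Mid1-ps1, with 9 regions, stood at 0 to 2.6.

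Other hosts missed the threshold under limma but were called by DESeq2 on recovered reads, which called 8 hosts, beside 1.52% of the genes it gave an adjusted p. Gm4759 and Gm1966 of the chromosome 7 group, 2610005L07Rik of the chromosome 8 cluster and 5830417I10Rik were higher in KO. Gm1966 had 856.2, 653.3, 1094.9 and 779.9 normalized counts in KO and 651.4, 529.6, 490.9 and 467.0 in Flox, with no overlap (DESeq2 adjusted p 0.0196, limma 0.238). In 2610005L07Rik the KO values of 99.4, 76.9, 213.9 and 76.5 stood above Flox values of 39.4 to 59.4 (DESeq2 adjusted p 0.0365, limma 0.239). In 5830417I10Rik, KO values of 357.3 to 511.6 stood above Flox values of 193.4 to 325.3 (DESeq2 adjusted p 0.0392, limma 0.239). Gm4759 overlapped, at 153.9 to 335.3 and 82.2 to 160.5 (DESeq2 adjusted p 0.017, limma 0.238). Gm12182, Gm11483 and Gm6548 were lower in KO by DESeq2; Gm6548, with 16 regions and a highest score of 37.9, stood at 181.3 to 311.0 in KO and 337.3 to 371.9 in Flox. The authors' deposited table called 7 of the 182 hosts it gave an adjusted p, beside 1.58% of all genes: Gm9855, Gm4759, Gm1966 and 5830417I10Rik higher and Gm11483, Gm6548 and Gm7634 lower.

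**Figure D4:**
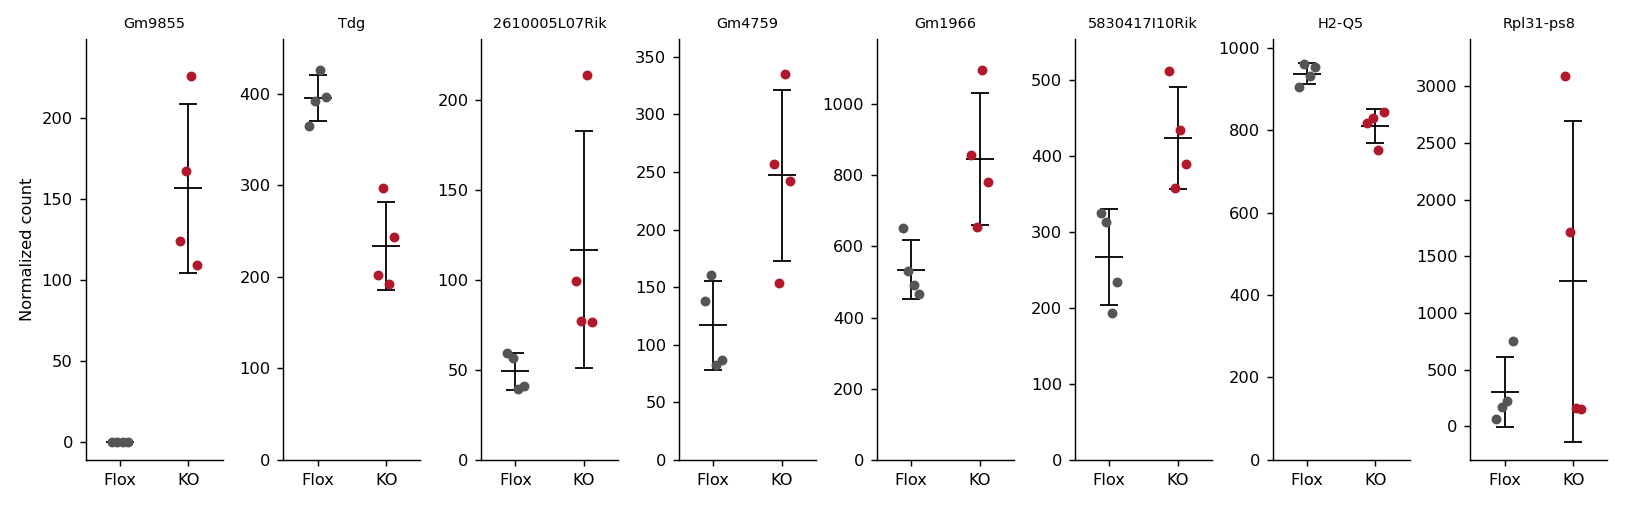
Normalized RNA-seq counts of 7 pseudogenes with Ago2 regions and of Tdg, 1 dot per library (4 Flox, 4 KO); the wide tick is the mean and the bars are 1 SD. Gm9855 is 0 in all Flox libraries and 109.1 to 225.5 in KO, whereas Rpl31-ps8 spans 147.8 to 3095.9 within the KO group alone.

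The most abundant hosts in RNA-seq did not pass the test. Gm9800 had 3488.0 to 5600.9 normalized counts in KO and 4890.8 to 8544.8 in Flox, Gm8995 1486.6 to 1951.7 and 1134.4 to 1508.7, and Gm12696 649.5 to 2059.2 and 389.1 to 718.3. H2-Q5 was lower in every KO library (751.5 to 845.1) than in any Flox library (904.6 to 959.8), with a limma adjusted p of 0.296. H2-T-ps had 683.3 to 805.4 in KO and 771.6 to 992.3 in Flox. Gm11427 was level, at 594.7 to 839.4 and 658.2 to 747.8.

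Hosts of low abundance and processed pseudogene hosts leaned toward lower values in KO. The median log2 fold change was -0.27 over the 274 hosts, beside -0.01 over all genes tested; 11 hosts were higher and 69 lower at an unadjusted p of 0.05, beside 7.74% and 7.39% of all genes. These counts depended on the tool and on single libraries, with 23 higher and 45 lower by edgeR, 22 and 48 by DESeq2, 33 and 83 without KO 4, 23 and 52 without KO 3, 27 and 43 without Flox 4, 14 and 37 without Flox 2, and 9 and 35 without Flox 3. Lower hosts outnumbered higher ones in all 16 alternatives. The 197 hosts with a mean of 10 to under 50 had a median of -0.47. The 77 with a mean of at least 50 had 0.17, so the sign turned with the abundance taken. The 209 processed pseudogenes tested had a median of -0.59, with 4 higher and 61 lower at an unadjusted limma p of 0.05. Medians were 0.39 in 15 unprocessed, 0.16 in 20 transcribed processed and 0.01 in 19 transcribed unprocessed hosts. The parts of abundance and biotype were not tested. Without KO 1 and KO 3, the libraries farthest from Flox over all genes, the median over hosts was -0.26. All genes with a mean of 10 to under 50 had a median of -0.10, and the 115 pseudogenes tested that held no member had -0.48. KO lay below Flox without overlap in 22 hosts (8.03%, beside 3.79% of all genes) and above it in 6 (2.19%, beside 4.18%).

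Library content also differed between the libraries. A read was counted for 817 to 888 hosts in KO 1, KO 2 and KO 3, for 1135 in KO 4 and for 1104 to 1159 in the Flox libraries; over all genes the same libraries had a read in 16352 to 17297, 18765 and 18140 to 18829. On the first principal component of all genes KO 4 (7.5) lay nearer the Flox libraries (14.5 to 26.5) than KO 1, KO 2 and KO 3 (-38 to -15.3). Without KO 4, limma called 3 hosts: Gm9855, with Gm4335 and Gm8643 lower in KO, beside 0.107% of all genes in that setting. Gm8643 had 1.1, 0, 0 and 25.0 normalized counts in KO and 15.5 to 39.4 in Flox. The part of library content in the host values was not tested.

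A group of pseudogenes varied between libraries in a way that crossed the genotypes. In 39 of the 274 tested hosts (14.2%, beside 3.12% of all genes tested) the 3 highest libraries were KO 1, KO 2 and Flox 4, a set noticed in the data. Of the 32 tested ribosomal protein hosts, 14 showed it, as did 30 of the 209 processed pseudogene hosts (14.35%). So did 4 of the 115 tested pseudogenes without a member (3.48%). Rpl31-ps8, whose parent encodes a large-subunit protein, had 3095.9, 1710.9, 163.0 and 147.8 normalized counts in KO and 65.4, 173.6, 220.0 and 756.2 in Flox. Rpl39-ps had 2460.6, 952.0, 215.1 and 102.3 in KO and 41.3, 103.0, 260.5 and 680.8 in Flox. Pgk1-rs7 had 230.4, 79.5, 43.9 and 12.9 in KO and 9.0, 16.6, 17.4 and 62.0 in Flox. In Rpl31-ps8 the KO mean was 1279 ± 1416 and the Flox mean 304 ± 308 (SD, n = 4), a difference smaller than the KO spread (limma adjusted p 0.459). Of 16 parents, 2 had the same 3 libraries highest and none had them lowest, and Rpl31 itself stayed within 279.8 to 589.4 over all 8 libraries.

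**Figure D5:**
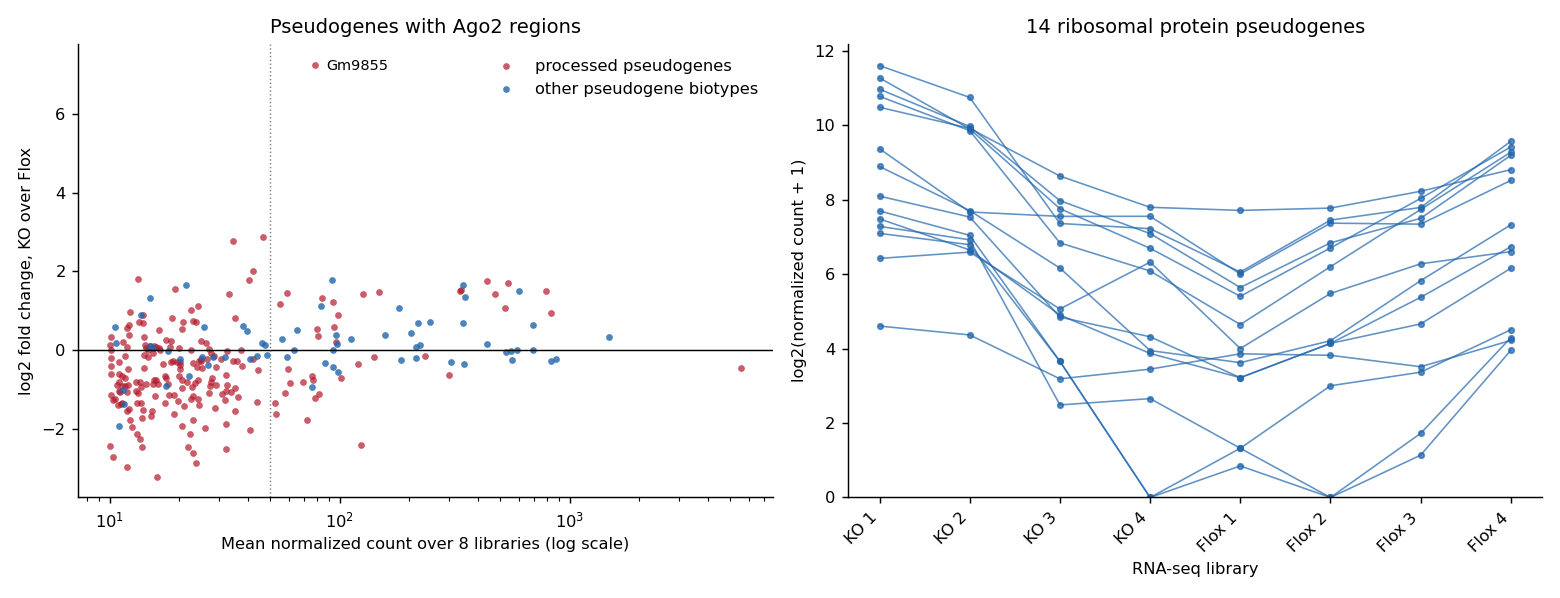
Left, log2 fold change (KO over Flox, on the normalized count plus 1) against mean normalized count for the 274 tested pseudogenes with Ago2 regions; the dotted line is at 50. Right, log2(normalized count + 1) in each of the 8 RNA-seq libraries for 14 ribosomal protein pseudogenes, 1 line each: KO 1, KO 2 and Flox 4 are highest in all of them, as chosen, and points low in Flox 1 and KO 4 recur.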

How the data were processed

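RNA-seq and Ago2 HITS-CLIP were made from B cells of 2 groups, KO and Flox, with 4 libraries each. The deposited RNA-seq values are a signal, gene counts divided by a library size factor and rounded, which stepped in whole reads (at least 99.99% of values within 0.1 read). The authors' table also gives log2 fold changes, p-values and adjusted p-values. Its columns call the Flox libraries WT. Per the file headers the dCLIP output gives, in bins of 5 nt, a difference score and a state for the comparison of 2 unnamed conditions, and the deposited summary adds 1 score to each region. Its 4 columns of values per condition could be matched to no group and were not used, so CLIP is described by score, state, difference and width. Per the submitters' processing notes, tools included cutadapt, Bowtie2, SAMtools, STAR and DESeq2, and the build mm9, although positions are those of GRCm38. Aligner settings and the treatment of tags that fit several loci were not given in the sources used here.

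The 13147668 bins were joined into 962700 regions, all found in the summary. Positions are as deposited. Genes with a mean of at least 10 were tested with limma-trend (limma 3.58.1, R 4.3.3) on log2 of the value plus 1, two-sided, with Benjamini-Hochberg adjustment at 0.05. The plan foresaw edgeR for raw counts; the unit being normalized, edgeR 4.0.16 and DESeq2 1.42.0 on recovered reads were alternatives. p-values measure the spread between these libraries, which may be technical. No test was made on CLIP, for which the table gives no value per library. The fit was tested on simulated data with the same noise setting for every gene. Such data cannot show how the fit handles pseudogenes that vary widely between libraries.

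The members, gene lists and tests were chosen with earlier results of these data known. Named regions were the 12 with the highest scores (at most 2 per pseudogene; the plan's ranking by tags could not be used), the 4 largest mean differences of each sign with a score of at least 5, and the best of Gm9855. Named pseudogenes were their hosts, the 8 with the most summed score, the 8 with most regions, those called and the 6 most abundant, with at most 4 examples per family of at least 3 pseudogenes. Other pseudogenes and parents in the text (other members of the chromosome 1 stretch, the copies of Rps13, Rpl30 and Rps12, those called only by other tools or without a library, Tdg, Mid1, Rpl39-ps, the chromosome 7 group, Igkv4-83, Ccnb1's copy, further copies of Tpt1, Eif3e and Eif1, and the readable sequences) were added after values were seen. Replicate numbers did not pair the libraries.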

Additional observations from a re-analysis of the deposited data

Results flagged for a closer look

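Values of 18 named pseudogenes were examined in each group of 4 libraries, 36 groups in all, for a library far from the other 3; chance flags about 1 group in 20. In Gm13341 the Flox 2 library stood at 54.1 normalized counts, above 38.2 to 39.3 in the other Flox libraries. In Gm13456 the Flox 3 library stood at 105.4, above 81.1 to 83.8. In 2610005L07Rik the KO 3 library stood at 213.9, above 76.5 to 99.4.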

How the results depend on the processing

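The RNA-seq comparison called 9 genes and 1 host, Gm9855. DESeq2 called 199 genes and 8 hosts, edgeR 9 and 1, and the replicate block 11 and 1; same-numbered libraries had correlations of -0.094 to 0.003, so the numbers do not pair them. Leaving out 1 library gave 8 to 17 genes (17 without KO 2, 14 without KO 4) and 1 to 3 hosts (3 without KO 4). Gm9855 passed in all 16 alternatives. Of the pseudogenes named by the rule, 2610005L07Rik (log2 fold change 1.24) and 5830417I10Rik (0.66) passed by DESeq2 and not by limma. None of the log2 fold changes that turned sign passed the test, and the cause was not tested. Gm13341 (-0.13) became 0.0861 with edgeR, 0.0834 with DESeq2 and 0.2273 without KO 1 and KO 3, and ranged from -0.3986 to 0.3761 without single libraries (highest without KO 3). Gm13340 (-0.12) ranged from -0.2948 to 0.1173 and turned without KO 2 or Flox 3 (0.0087). Without KO 1 and KO 3, Gm21811 (0.29) became -0.0067 and Gm13456 (0.21) -0.1065. Gm11427 (0.0031) became -0.0084 with TMM scaling and -0.0371 without KO 1 and KO 3, and ranged from -0.0921 to 0.0734 without single libraries. Leaving out KO 1 and KO 3 together was chosen after seeing the data, as was leaving out the chromosome 1 copy.

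Members numbered 9526 to 13918 under the overlap, strand and width alternatives and 2282, in 1008 pseudogenes, with a score of at least 5. That limit gave a median width of 40 nt and 66.83% in the negative state, beside 50 nt and 37.46% over all members. It leaves out every member without a difference, so these negative shares are not comparable. Members of at least 20 nt had 39.01% in the negative state. No paired analysis was possible for CLIP because the table gives no value per library.

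The CLIP values carry no replicate error, their conditions are unnamed, and reads or tags shared by a pseudogene and its relatives cannot be told apart here. Most hosts were under the RNA-seq minimum and were not tested; the part of reads that fit several loci in their low counts was not tested.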
